A study of Mus musculus with 6 samples.

Results

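The genes of blood clotting and clot breakdown were followed in mouse liver after a normal or a high-fat diet. They were chosen by name: 32 genes were listed, and a listed gene was included if a probe set of the array carried its symbol and no other. Of these, 31 had at least 1 such probe set (40 probe sets in all), among 18193 genes represented on the array, and Cpb2 is not analysed here. A filter on low levels left 29 of the 31 among 14071 genes tested. F3 and Plau lay below it and are given by their levels alone.

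All mice were male C57BL/6, an inbred laboratory strain. Feeding began at 8 weeks of age and lasted 12 weeks, with a normal diet for the control group and, for the other group, a diet that drew 60% of its calories from fat. The study asked which liver genes are tied to disturbed lipid handling in obesity. Each diet had 6 mice, whose liver RNA was combined in pairs, which is taken to mean 3 pools of 2 mice for each diet. 1 Affymetrix Mouse Genome 430 2.0 array was used for each pool, so n is 3 arrays per diet, and the p-values reflect how far pooled samples varied rather than how far individual mice did. Whole liver was used, so a change in the share of a cell type and a change in RNA per cell cannot be told apart. Values are log2 expression levels, on which a difference of 1 is a doubling, and differences are high-fat minus normal diet with the standard error (SE) of the fit. A gene was called at an adjusted p below 0.05 by limma, a linear model that shares variance information between genes, with Benjamini-Hochberg adjustment over all genes tested.

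Clotting is a chain of proteases. Tissue factor with factor VII, or the contact factors XII and XI, lead through factors IX and X to thrombin, which cuts fibrinogen into the fibrin of a clot. Hepatocytes make most of these proteins, together with the inhibitors that restrain them and with plasminogen, the precursor of the clot-dissolving enzyme plasmin. Endothelial cells supply others, such as von Willebrand factor, factor VIII, thrombomodulin and tissue plasminogen activator, and fibrinogen is also a classical acute phase protein whose genes respond to interleukin 6.

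The arrays were not equally alike. Pearson's r of array pairs was taken over the tested genes, which do not count as replicates. It ran from 0.993 to 0.994 for high-fat pairs, 0.972 to 0.988 for normal diet pairs and 0.951 to 0.980 between diets. Normal diet 1 and 2 were each less alike to normal diet 3 (0.9718 and 0.9740) than to any high-fat array (0.9735 to 0.9798). Normal diet 3 stood apart on the first principal component, with a score of -46.2 against -15.6 and -12.5 for the other normal diet arrays, so values without it are given for the called genes. As a check of the tissue, the 9 tested hepatocyte markers averaged 13.01 to 13.06 in the normal diet arrays and 12.98 to 13.03 in the high-fat arrays, and limma called 0 of them (3 lower at an unadjusted p below 0.05).

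Of the 29 tested clotting genes, 4 fell under the high-fat diet, 2 rose and 23 were not called. Those that fell were the fibrinogen chain genes Fga, Fgb and Fgg and Serpina10, which encodes the protein Z-dependent inhibitor of activated factor X. Those that rose were Vwf, the von Willebrand factor gene, and Plat, the gene of tissue plasminogen activator. Plat passed the level filter through its high-fat arrays and was near background under the normal diet, so its count among the genes that rose is no support for a rise. Over all tested genes 1.73% were called lower and 5.87% higher (7.6% in all), against 13.8% lower and 6.90% higher among these 29. All-gene counts were 826 higher and 244 lower, and 596 and 301 after quantile normalization. The median difference was -0.05 for the 29 and 0.00 for all tested genes, with 12 genes above 0 and 17 below it. Of the 29, 17 lay within 0.25 of no difference, a count that was not made over all tested genes.

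**Figure D1:**
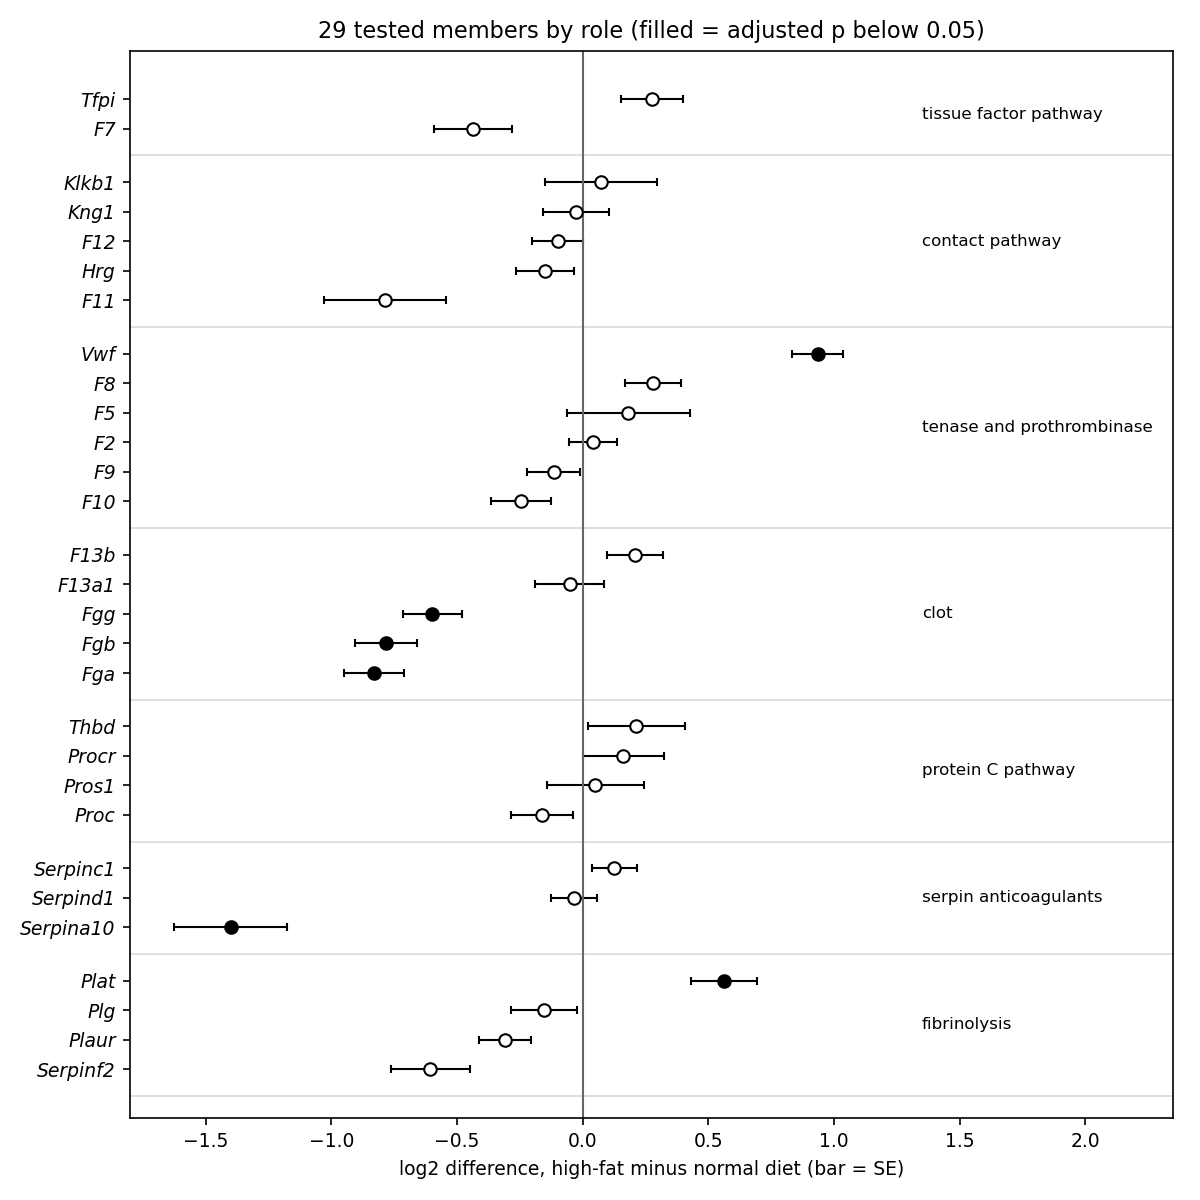
Log2 difference (high-fat minus normal diet) of the 29 tested clotting genes, grouped by role on the vertical axis. Some genes stand beside a complex or pathway without being part of it. These are Vwf, placed with factor VIII, which it carries, F2, whose product prothrombinase cuts, and Hrg, placed with the contact factors. Bars are the SE of the fit (3 arrays per diet) and filled points are called. Fga, Fgb, Fgg and Serpina10 stand to the left of 0 and Vwf and Plat to the right, while most other genes lie near 0.

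The fibrinogen genes carried the clearest joint change, and the sequence before each start site is shown because the 3 fell together and the acute phase elements known from fibrinogen promoters can be looked for in it. Each line gives the 250 bases before the RefSeq start on GRCm38.p6, read along the gene, for Fga (chr3:83025903-83026152, plus strand), Fgb (chr3:83049864-83050113, minus strand) and Fgg (chr3:83007474-83007723, plus strand). Capitals mark a match, on either strand, to CTGGGAA (an interleukin 6 response element), TTCNNNGAA (a STAT3 site), TTGCNNAA (a C/EBP site), GTTAAT (an HNF1 core), CAAAGT (an HNF4 core) or TGTTTAC (a FOXA site).
Fga: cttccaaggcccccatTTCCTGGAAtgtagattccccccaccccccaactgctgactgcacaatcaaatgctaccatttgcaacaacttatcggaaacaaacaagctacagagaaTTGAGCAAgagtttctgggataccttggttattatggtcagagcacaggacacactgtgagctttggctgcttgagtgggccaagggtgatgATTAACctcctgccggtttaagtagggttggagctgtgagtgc
Fgb: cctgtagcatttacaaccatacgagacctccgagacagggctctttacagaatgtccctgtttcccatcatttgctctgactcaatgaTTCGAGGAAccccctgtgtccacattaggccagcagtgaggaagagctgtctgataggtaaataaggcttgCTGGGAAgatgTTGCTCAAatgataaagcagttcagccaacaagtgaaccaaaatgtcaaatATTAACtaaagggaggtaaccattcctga
Fgg: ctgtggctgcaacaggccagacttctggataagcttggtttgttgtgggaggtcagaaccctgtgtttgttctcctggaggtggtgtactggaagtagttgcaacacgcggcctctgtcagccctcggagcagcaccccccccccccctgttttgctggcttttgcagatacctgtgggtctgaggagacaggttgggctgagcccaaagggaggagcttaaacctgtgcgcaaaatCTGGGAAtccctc

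Fga held TTCCTGGAA 234 to 226 bases before the start, TTGAGCAA at 135 to 128, and an HNF1 core at 43 to 38. Fgb held TTCGAGGAA at 162 to 154, CTGGGAA at 91 to 85, TTGCTCAA at 80 to 73 and an HNF1 core at 29 to 24. Fgg held CTGGGAA alone, at 13 to 7. No CAAAGT or TGTTTAC was found in these 3 windows, which says only that those letters are not there. Over 27025 promoter windows of the same length, 9.08% held CTGGGAA, 7.18% TTCNNNGAA, 9.55% TTGCNNAA, 6.52% GTTAAT, 12.5% CAAAGT and 3.09% TGTTTAC. Both STAT3 matches also fitted the narrower TTCNNGGAA, which lies within TTCNNNGAA and was in 4.17% of windows.

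The table held windows for 24 of the clotting genes. CTGGGAA was in 4 of them (F9, Fgb, Fgg and Tfpi), TTCNNNGAA in 4 (F9, Fga, Fgb and Pros1), TTGCNNAA in 8 (F11, F9, Fga, Fgb, Hrg, Klkb1, Plaur and Procr), GTTAAT in 3 (F13b, Fga and Fgb), CAAAGT in 6 (F11, F8, F9, Hrg, Procr and Serpind1) and TGTTTAC in 2 (F11 and Klkb1). F9, whose product is factor IX, held 4 of these patterns. Its CTGGGAA match, 82 to 76 bases before the start, lay within its TTCNNNGAA match at 82 to 74. The F9 level differed by -0.12 ± 0.10 and was not called, and a link between matches and levels was not tested. These matches are descriptions of sequence and not shown binding sites. Kng1, Plat, Plau, Plg, Proc, Serpina10, Thbd and Vwf had no window.

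Fibrinogen is built from alpha, beta and gamma chains, and the 3 genes fell by similar amounts. Fga, of the alpha chain, lay at 12.93, 13.10 and 13.21 in normal diet 1, 2 and 3 and at 12.12, 12.37 and 12.26 in high-fat 1, 2 and 3. Fgb, of the beta chain, lay at 13.69, 13.97 and 14.04 under the normal diet and at 13.02, 13.13 and 13.19 under the high-fat diet. Fgg, of the gamma chain, lay at 13.71, 13.92 and 14.05 against 13.22, 13.31 and 13.36. In each gene all 3 high-fat arrays were below all 3 normal diet arrays, normal diet 1 was the lowest and normal diet 3 the highest of its group, and high-fat 1 was the lowest of all.

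The differences were -0.83 ± 0.12 for Fga (1.78-fold lower, adjusted p = 0.0112), -0.78 ± 0.12 for Fgb (1.72-fold lower, adjusted p = 0.0131) and -0.60 ± 0.12 for Fgg (1.51-fold lower, adjusted p = 0.0274). Whether the chains differed in the size of the fall was not tested. Without normal diet 3 the differences were -0.76, -0.71 and -0.52 and all 3 were called. Leaving out a high-fat array ended most of these calls with like differences: Fga lost its call on dropping high-fat 1 or 3 (adjusted p = 0.0523 and 0.0591). Fgb and Fgg lost theirs on dropping any high-fat array (adjusted p from 0.0610 to 0.109), and Fgg also on dropping normal diet 2 (-0.58, adjusted p = 0.0608). Such losses were array-wide. Over all tested genes 1070 were called with every array, and 272, 217 and 169 without high-fat 1, 2 and 3. Without normal diet 1, 2 and 3 the counts were 1065, 949 and 1245.

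In the order of the RefSeq table Fgg, Fga and Fgb follow each other with no other protein-coding gene between them. Of the genes that flank them, Lrat, which encodes a retinol-esterifying enzyme of stellate cells, rose by 1.43 ± 0.32. Plrg1, a splicing factor gene on the other side, differed by -0.66 ± 0.27 and was not called. The remaining clot genes encode factor XIII, which crosslinks fibrin. F13b, of its carrier subunit, differed by 0.21 ± 0.11, and F13a1, of its catalytic subunit, lay between 3.32 and 3.73, close to the level filter, with a difference of -0.05 ± 0.14. Neither was called, so of the 5 clot genes the 3 fibrinogen chains fell and 0 rose. Over all tested genes 1.73% were called lower and 5.87% higher.

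**Figure D2:**
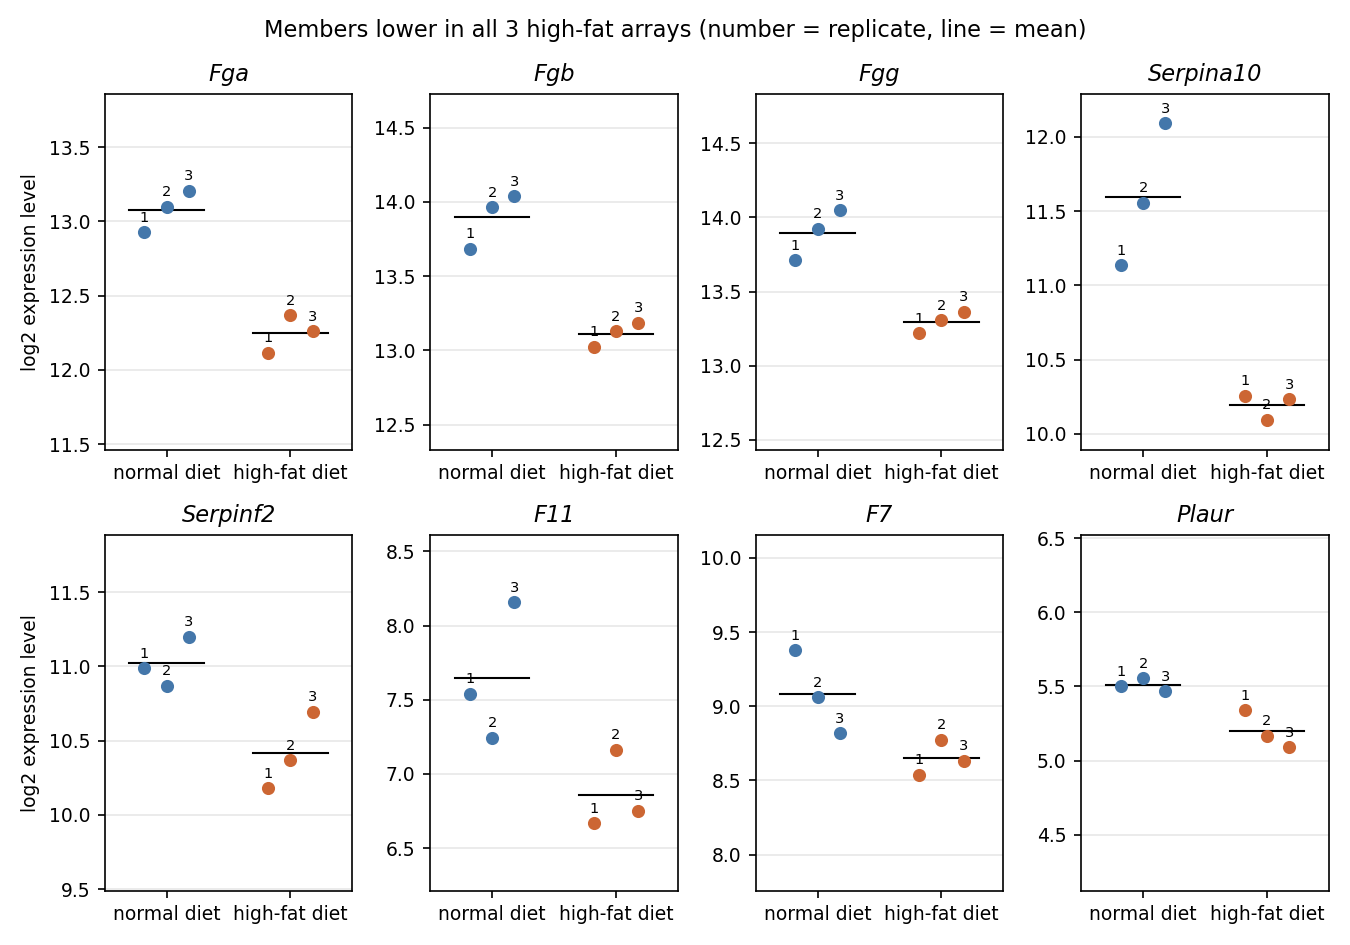
Log2 expression level of the 8 tested clotting genes whose high-fat arrays all lay below the normal diet arrays, with 1 point per array (numbered by replicate) and a line at the mean; every panel spans the same log2 range. The fibrinogen genes and Serpina10 were called, and the gap is widest in Serpina10, where normal diet 3 is also far above normal diet 1.

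Among the serpins that inhibit clotting proteases, Serpina10 had the largest difference of all 29 genes. It lay at 11.14, 11.56 and 12.09 in normal diet 1, 2 and 3 and at 10.26, 10.09 and 10.23 in high-fat 1, 2 and 3. The diets did not overlap, and the normal diet arrays spread far more widely than the high-fat arrays. The fall was 2.64-fold, at -1.40 ± 0.22 (adjusted p = 0.0139). It came to -1.15 when normal diet 3 was dropped (adjusted p = 0.00469), and the call was lost on dropping any high-fat array (adjusted p from 0.0612 to 0.0701). Its probe set is of a kind designed to match several transcripts, so relatives of the Serpina family may contribute to it.

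Proz, which encodes protein Z, the cofactor of that inhibitor, differed by -0.20 ± 0.20 and was not called. On the chromosome Serpina10 lies between Ppp4r4 (-0.03 ± 0.09) and Serpina6 (0.55 ± 0.62), neither of them called. Serpinc1, the antithrombin gene, lay at 13.34, 13.35 and 13.29 under the normal diet and at 13.45, 13.50 and 13.42 under the high-fat diet. These groups did not overlap, but the difference of 0.13 ± 0.09 was not called (adjusted p = 0.392). Serpind1, which encodes heparin cofactor II, differed by -0.03 ± 0.09.

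The 2 sets of arrays were fully separated in 8 genes that were lower and 4 that were higher under the high-fat diet, which is 27.6% and 13.8% of the 29. Over all tested genes these shares were 14.7% and 21.1% (35.8% in all). Beyond the called genes the lower ones were F7, F11, Plaur and Serpinf2, and the higher ones F8 and Serpinc1. None of these 6 passed the test, and their values follow with their roles.

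Of the 4 tested fibrinolysis genes Plat was the only one called, beside 7.6% of all tested genes. Plat, whose product starts fibrinolysis by activating plasminogen, lay at 3.57, 3.43 and 3.50 in the normal diet arrays and at 4.08, 4.27 and 3.84 in the high-fat arrays. All high-fat arrays were higher, and the fitted difference was 0.56 ± 0.13 (adjusted p = 0.0429). The level filter of the normal diet arrays stood at 3.54, 3.53 and 3.59, so Plat was near background there, below the filter in normal diet 2 and 3. It was tested because the 3 high-fat arrays exceeded the filter, and no fold is given. Its call ended in each fit that left out an array (adjusted p from 0.0543 to 0.140, and 0.0543 without normal diet 3), with a replicate block (0.0751) and with probe sets tested singly (0.0503). Another Plat probe set lay below the filter, at means of 3.24 and 3.10.

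Serpinf2 encodes alpha 2-antiplasmin, the main inhibitor of plasmin. It lay at 10.99, 10.87 and 11.20 under the normal diet and at 10.18, 10.37 and 10.70 under the high-fat diet, with no overlap. The difference of -0.61 ± 0.16 did not pass (adjusted p = 0.0611) but did after cyclic loess normalization (-0.74, adjusted p = 0.0452). Plaur, the gene of the urokinase receptor, lay at 5.50, 5.56 and 5.47 against 5.34, 5.17 and 5.09, again without overlap and without passing (-0.31 ± 0.10, adjusted p = 0.110). Plg, the plasminogen gene, differed by -0.15 ± 0.13. Plau, which encodes urokinase, was below the level filter in all 6 arrays, at 3.08 to 3.56.

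Vwf had the smallest adjusted p of the group. Its product tethers platelets to injured vessel walls and carries factor VIII in the blood. It lay at 4.81, 4.75 and 4.80 in the normal diet arrays and at 5.74, 5.59 and 5.84 in the high-fat arrays, which is a narrow spread in each diet and a wide gap between them. The difference was 0.93 ± 0.10, 1.91-fold higher (adjusted p = 0.00508). Vwf was called under all 18 alternatives, at 0.88 to 1.00 and adjusted p from 0.00275 to 0.0331, including each array left out in turn (0.94 without normal diet 3).

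Markers of endothelial cells and platelets were counted beside Vwf and Plat. Of all tested genes 5.87% were called higher. Of 12 tested endothelial markers 11 had a positive difference and 2 rose, Lyve1 (1.36 ± 0.23) and Emcn (0.71 ± 0.13), and their summed linear level was 1486 to 1521 in the normal diet arrays and 1720 to 1910 in the high-fat arrays. Of 6 tested platelet and megakaryocyte markers 2 were called higher and 4 had a negative difference, with a median of -0.03, and their summed level was 213 to 220.2 against 224 to 249.5. The 2 were Pf4 (0.88 ± 0.18) and Ppbp, which was below the level filter in all 3 normal diet arrays and passed it only through the high-fat arrays. The receptor genes among them, Gp9, Gp1bb and Itga2b, differed by -0.05, -0.22 and -0.10 and were not called. The part of these cells in the Vwf and Plat differences was not tested.

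F8, the factor VIII gene, which sinusoidal endothelial cells express, lay at 6.01, 5.94 and 5.94 under the normal diet and at 6.38, 6.27 and 6.08 under the high-fat diet. The groups did not overlap, and the difference of 0.28 ± 0.11 was not called (adjusted p = 0.157). Thbd and Procr encode thrombomodulin and the endothelial protein C receptor, which bring about the activation of protein C. Their differences were 0.21 ± 0.19 and 0.16 ± 0.16, with overlapping arrays and no call. Thbd ranged from 4.42 to 5.24 and Procr from 3.97 to 4.64 over the 6 arrays. The protein C gene Proc (-0.16 ± 0.12) and Pros1, of its cofactor protein S (0.05 ± 0.19), were not called. So limma called 0 of 4 protein C pathway genes (0 at an unadjusted p below 0.05), beside 7.6% of all tested genes.

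**Figure D3:**
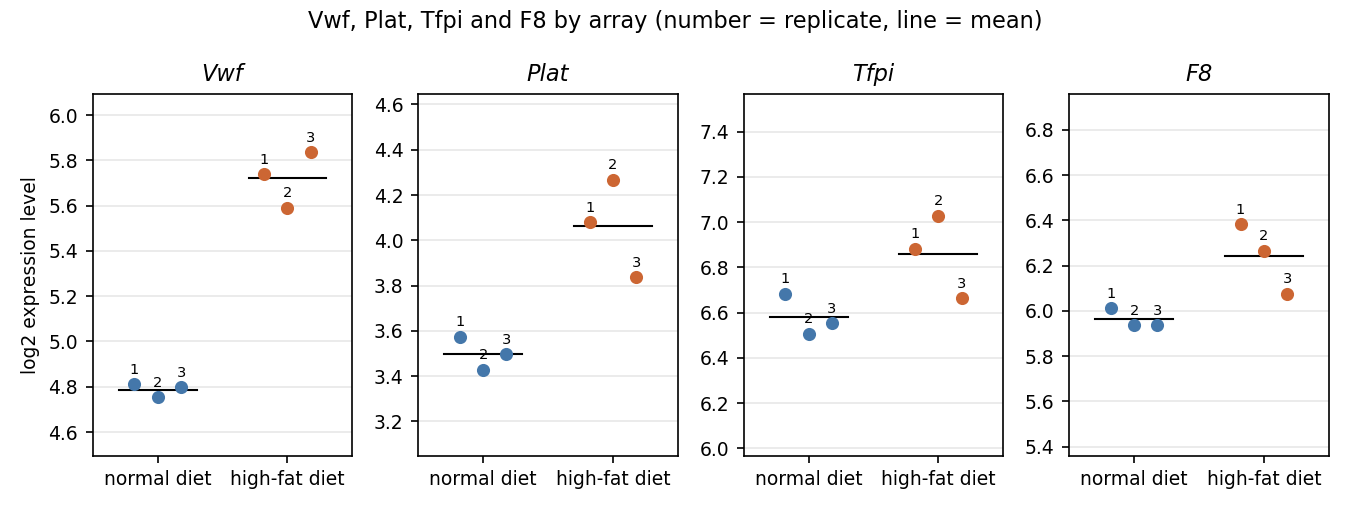
Log2 expression level of Vwf, Plat, Tfpi (the brightest of its 4 probe sets) and F8, with 1 point per array (numbered by replicate) and a line at the mean; every panel spans the same log2 range. Vwf has the widest gap between diets relative to its spread, Tfpi arrays overlap, and Plat and F8 arrays do not.

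Tfpi encodes tissue factor pathway inhibitor, the brake on the first step of clotting, and its result depended on the probe set. The brightest of its 4 probe sets lay at 6.68, 6.51 and 6.55 against 6.88, 7.03 and 6.66 and overlapped between diets (0.28 ± 0.12, adjusted p = 0.194). A dimmer one lay at 3.78, 3.91 and 3.83 under the normal diet and at 4.62, 4.80 and 4.62 under the high-fat diet. Tested over all probe sets it differed by 0.84 ± 0.10, with an adjusted p of 0.00816. The other 2 differed by 0.35 ± 0.12 (adjusted p = 0.115) and, below the filter, by 0.11. The former was below the filter in the normal diet arrays, at 3.46, 3.35 and 3.23, and was tested only through its high-fat arrays. Its difference is therefore no support for a rise. All 4 were higher on average under the high-fat diet, but that count takes in this probe set and the one below the filter. It is no support for a rise either. Tfpi was called when its probe sets were averaged (0.40, adjusted p = 0.0417), a mean that includes the same dim probe sets. It was also called when the most variable one stood for the gene (0.84). Which transcripts the probe sets detect was not examined.

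In the rest of the tissue factor pathway F7, the factor VII gene, lay at 9.38, 9.06 and 8.82 under the normal diet and at 8.54, 8.77 and 8.63 under the high-fat diet. The arrays did not overlap, although normal diet 3 and high-fat 2 nearly met. The difference of -0.44 ± 0.16 did not pass (adjusted p = 0.125), but F7 was called without normal diet 3 (-0.57, adjusted p = 0.0414). F3, the tissue factor gene, was below the level filter in every array, at 2.89 to 3.47. Of the 2 tested genes of this pathway limma called 0, beside 7.6% of all tested genes, with 1 lower at an unadjusted p below 0.05. Over all 29 genes 8 were lower and 3 higher at that unadjusted threshold, which 9.46% and 18.1% of all tested genes passed in those directions (27.6% in all).

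Of the 5 genes grouped under the contact pathway limma also called 0, beside 7.6% of all tested genes, with 1 lower at an unadjusted p below 0.05. That gene was F11, of factor XI, at 7.54, 7.24 and 8.16 against 6.67, 7.16 and 6.75. The arrays just failed to overlap, and normal diet 3 was well above its group. F11 differed by -0.79 ± 0.24 (adjusted p = 0.0924), or by -0.53 when normal diet 3 was dropped. Klkb1, which lies next to F11 and encodes plasma prekallikrein, differed by 0.07 ± 0.22 and ranged from 9.18 to 10.04 in the normal diet arrays alone. F12, of factor XII, differed by -0.10 ± 0.10. Kng1, of the kininogen that carries prekallikrein and factor XI, differed by -0.03 ± 0.13. Its other probe set did not overlap between diets, at -0.23 ± 0.13, and was not called. Hrg, which encodes histidine-rich glycoprotein and is grouped here without being a contact factor, differed by -0.15 ± 0.11.

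The proteases at the centre of the chain, which need vitamin K, and their cofactor factor V were not called. F2, the prothrombin gene, lay at 12.84, 12.85 and 12.69 under the normal diet and at 12.82, 12.82 and 12.85 under the high-fat diet, a difference of 0.04 ± 0.09. F9 lay at 10.61, 10.41 and 10.39 against 10.31, 10.43 and 10.33, and F10, of factor X, at 10.67, 10.47 and 10.41 against 10.19, 10.18 and 10.44 (-0.25 ± 0.12). F5, the factor V gene, spread from 9.68 in normal diet 3 to 10.66 in normal diet 1 and differed by 0.18 ± 0.25. All 4 overlapped between diets. With F8 these are 5 genes grouped under tenase and prothrombinase, where the F2 product is cut by prothrombinase and is not part of it. Of these 5 limma called 0 (1 higher at an unadjusted p below 0.05). With Vwf, the group of 6 had 1 called higher and 2 higher at that unadjusted p. Over all tested genes 5.87% were called higher, and 18.1% were higher at that unadjusted p. A missed threshold does not show that levels were equal.

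The normal diet arrays were the more spread group for most of the clotting genes. The SD was larger under the normal diet in 18 of the 29 genes, with medians of 0.148 and 0.127. Normal diet 3 was the lowest of its group in 14 of the 29 and normal diet 1 the highest in 16, whereas in the fibrinogen genes and Serpina10 this was turned round. These counts of spread and order were not made over all tested genes. Without normal diet 3, 5 of the 29 were called lower and 1 higher, beside 312 lower and 933 higher of all 14071 tested genes.

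Further genes of clotting and its control were looked at as a list of 27, of which 23 had a probe set and 21 were tested. Of these 1 rose, 0 fell (0 lower at an unadjusted p below 0.05) and 20 were not called. The share called was 4.76%, beside 7.6% of all tested genes, and the median difference was 0.06. The one that rose was Gas6, whose product is a vitamin K-dependent ligand of TAM receptors (0.46 ± 0.10, adjusted p = 0.0407). Gas6 was called in 8 of 18 alternatives, 7 of them among the 12 that kept all arrays. Those of the 12 without a call included averaging its probe sets (0.16, adjusted p = 0.266) and cyclic loess or quantile normalization (0.35 and 0.32). Among the fits that left out an array, only the one without normal diet 3 called it. Vkorc1 and Ggcx, whose products recycle vitamin K and use it to modify the clotting factors, differed by 0.09 ± 0.10 and 0.02 ± 0.13. Both turned slightly negative after cyclic loess.

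Because fibrinogen genes are acute phase genes, other genes of that response and of its interleukin 6 signalling were counted beside them as 1 list. Of 22 tested genes of this acute phase list 9 fell, 0 rose (0 higher at an unadjusted p below 0.05) and 13 were not called. The 22 include the receptor and signalling genes Il6ra, Il6st, Stat3 and Socs3, and Stat3 and Socs3 were among the 9. The share that fell was 40.9%, beside 1.73% of all tested genes. All 22 had a negative difference, with a median of -0.90. The list was chosen with falls of serum amyloid genes in these arrays already known, so its direction is not independent evidence. Fgl1, a fibrinogen-like gene of hepatocytes, fell by 1.32 ± 0.18. Stat3, whose product carries the interleukin 6 signal to the nucleus, fell by 1.00 ± 0.14 (2.01-fold lower), and Serpina3n, an acute phase serpin gene, by 1.64 ± 0.22. Steap4, a metalloreductase gene, fell by 2.13 ± 0.21. Saa1 and Saa2, of serum amyloid A, differed by -2.74 ± 0.11 and -3.69 ± 0.15 and both fell, and their probe sets can pick up near-identical copies. Il6ra, the interleukin 6 receptor gene, differed by -0.82 ± 0.41 and was not called (adjusted p = 0.239), but was when normal diet 3 was dropped (-1.25) and with a replicate block.

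Not every hepatocyte-made acute phase transcript was lower to that extent: Hp, the haptoglobin gene, differed by -0.21 ± 0.09, Hpx, of haemopexin, by -0.04 ± 0.10 and Cp, of ceruloplasmin, by -0.09 ± 0.19, with no call. The fibrinogen differences of -0.60 to -0.83 were smaller than the list's median. The Stat3 call ended without any one high-fat array, and those of Fgl1 and Serpina3n without high-fat 2 or 3 (adjusted p up to 0.0560).

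Hepatocyte transcription factors, several of which bind promoters of clotting genes, were counted as well. Of 14 tested, 5 fell, 0 rose (0 higher at an unadjusted p below 0.05) and 9 were not called. The share that fell was 35.7%, beside 1.73% of all tested genes. The differences were -2.10 ± 0.16 for Onecut1, -1.34 ± 0.16 for Foxa3, -1.27 ± 0.24 for Foxa1, -0.94 ± 0.19 for Foxa2 and -0.69 ± 0.11 for Hnf4a. The Hnf4a call depended on the probe set: averaging the gene's probe sets gave -0.48 (adjusted p = 0.0635), and using suffix-free probe sets gave -0.41 (adjusted p = 0.215). Hnf4a, Foxa1 and Foxa2 lost their calls on dropping any high-fat array, while Foxa3 kept its own each time. Cebpa differed by 0.05 ± 0.16 and was not called, with small negative values after cyclic loess and quantile normalization.

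**Figure D4:**
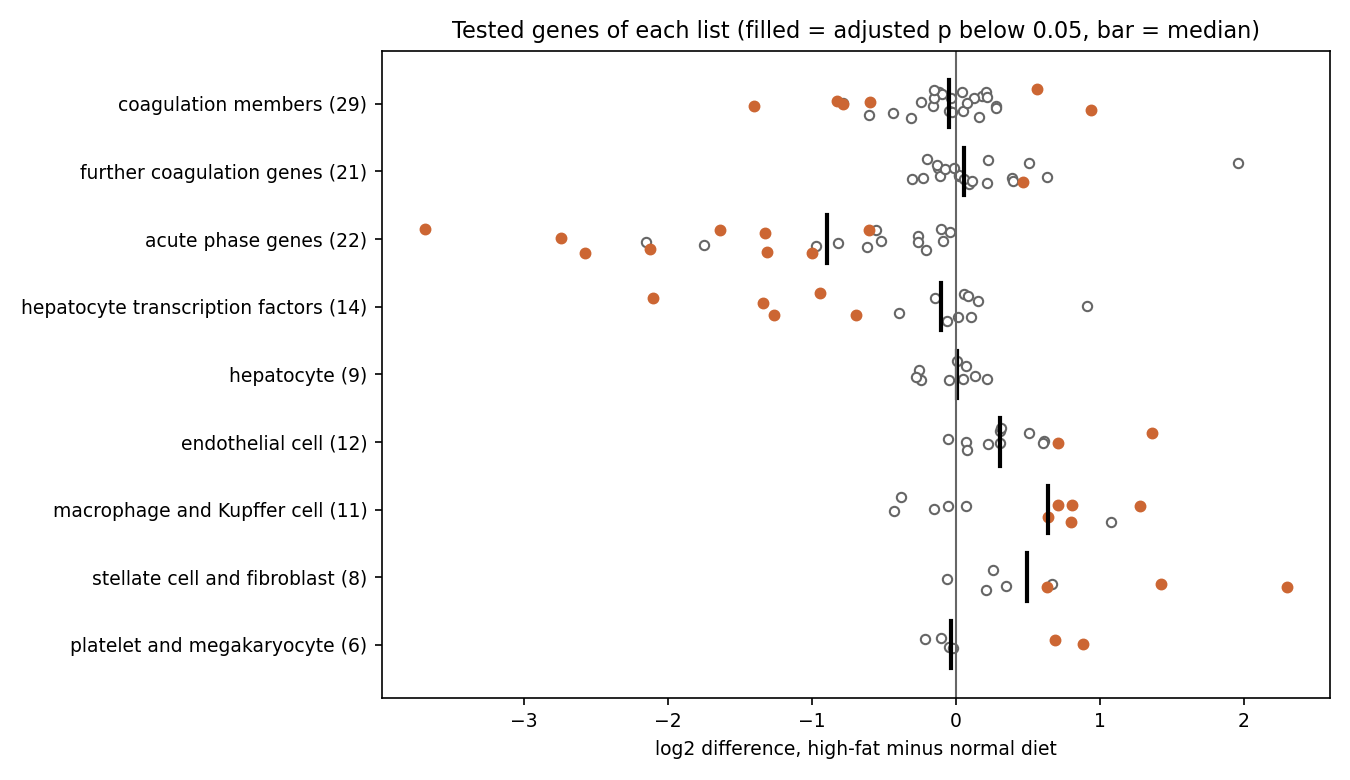
Log2 difference (high-fat minus normal diet) of every tested gene in the clotting list, 3 further gene lists and 5 lists of cell type markers, with the number of genes in brackets; filled points are called, black bars are medians and vertical scatter is only for legibility. The acute phase genes lie to the left of 0, with a median of -0.90, whereas the clotting genes centre near 0 with a few called genes on each side.

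Marker lists of the other cells were counted in the same way, beside 5.87% of all tested genes called higher and 1.73% lower. Of 11 tested macrophage and Kupffer cell markers 5 rose, 0 fell and 4 had a negative difference, 2 of them lower at an unadjusted p below 0.05 (Trem2 at -0.43 ± 0.15 and Ccr2 at -0.38 ± 0.12, picked out after their values were seen). Their summed linear level was 2232 to 2850 under the normal diet and 3764 to 4019.7 under the high-fat diet. Of 8 stellate cell and fibroblast markers 3 rose, with sums of 1552 to 1577 against 2271 to 2924. Of 3 neutrophil, 4 lymphocyte, 4 cholangiocyte and 1 red cell markers limma called 0 (1 lower at an unadjusted p below 0.05 in each of the neutrophil and cholangiocyte lists). The hepatocyte sum was 91348 to 95514 against 91693 to 94577. That sum overlapped between diets, but 6 of the 9 single hepatocyte markers did not: Alb, Ttr and Apoh were higher, and Ahsg, Tat and Cps1 lower, in every high-fat array. Of all tested genes 35.8% did not overlap. The part of these cells in the fibrinogen differences was not tested.

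**Figure D5:**
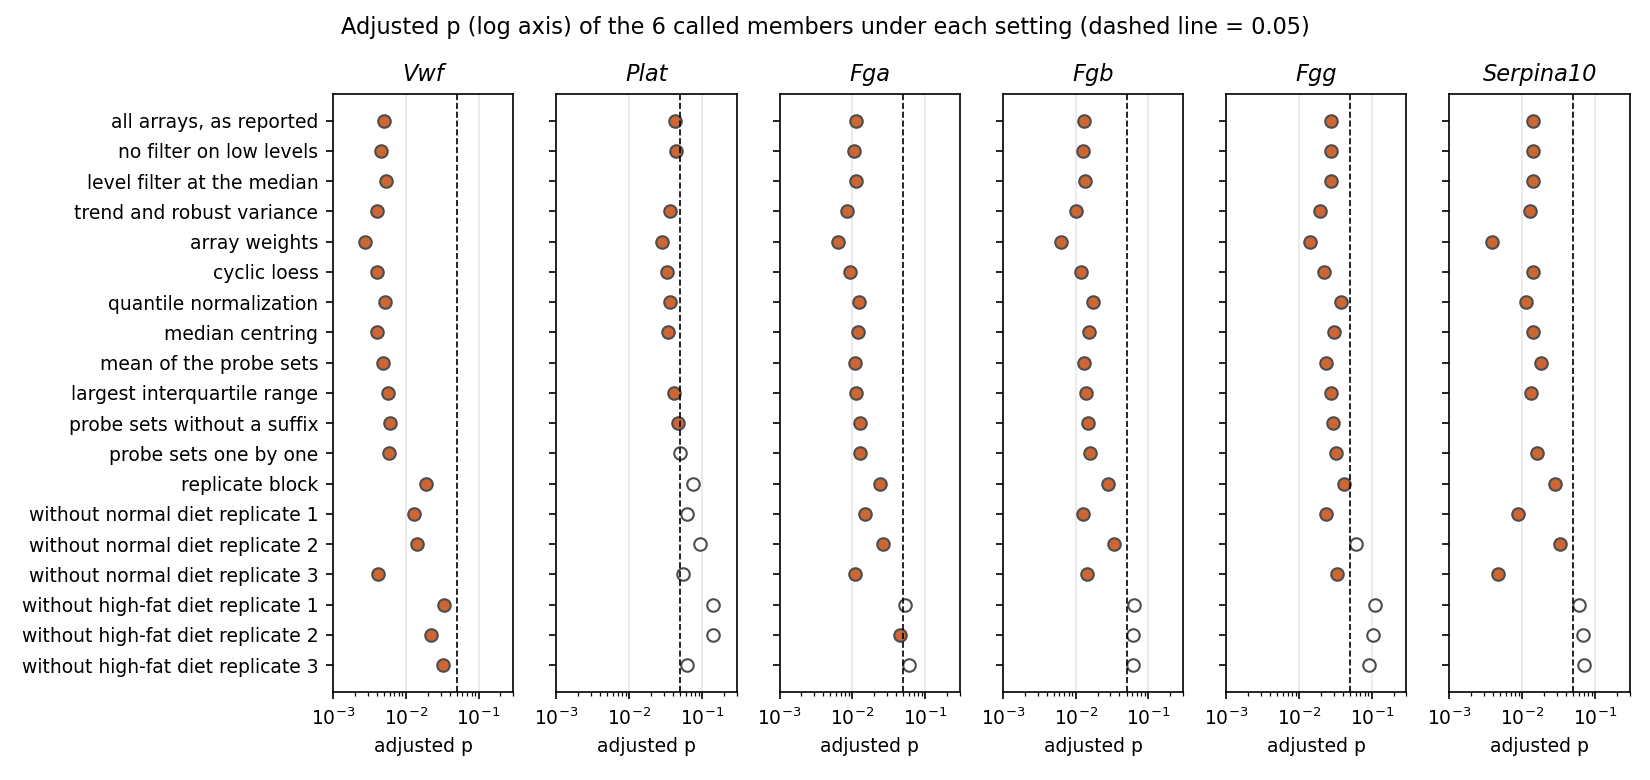
Adjusted p (log axis) of the 6 called clotting genes under each processing setting (rows), filled where it is below 0.05 (dashed line). Vwf stays to the left of the line in every row, the fibrinogen genes and Serpina10 cross it mainly when a high-fat array is left out, and Plat lies close to it throughout.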

How the data were processed

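Liver RNA of 2 diets was measured on 6 arrays, 3 per diet, grouped by the sample titles. The authors deposited 1 log2 value for each probe set and array. The submitters' processing notes name RMA and Expression Console 1.0 from Affymetrix. Because RMA shrinks dim signals toward each other, a dim gene's fold is likely too small. The genome build is not given in the sources used here.

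After 64 control probe sets were left out, 34945 of 45037 had 1 gene symbol, 932 several, and 9160 are unnamed here. The brightest probe set on average stood for a gene. A gene was tested if 3 or more arrays put it over their 40th percentile. limma 3.58.1 in R 4.3.3 (lmFit, eBayes, two-sided, Benjamini-Hochberg) was tested on simulated data first. Promoters are from RefSeq (GRCm38.p6). Every listed clotting gene was named, with up to 6 called genes of each further list, by smallest p, and landmark genes fixed by name, of which 1 is not analysed here. Values per array were planned for called genes, those whose diets do not overlap and 1 per role. The uncalled platelet receptor genes, Hp, Hpx and Cp, the flanking genes and the CTGGGAA search were added after their values or the results were seen. Members, lists and tests were chosen with earlier results of these data known. Alternatives were other level filters, variance models, array scalings, probe set choices and thresholds, blocking on replicate number, and dropping single arrays. The number of arrays limits the precision. Figures used Python 3.11.15 and matplotlib 3.10.9.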

Additional observations from a re-analysis of the deposited data

How the results depend on the processing

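Depth is not defined for arrays, and their number and the compression of dim signals limit what can be seen: F3 and Plau lay below the level filter, and Plat, F13a1 and most Tfpi probe sets lay near it. Vwf was called under all 18 alternatives, Fga under 16, Fgb under 15, Fgg under 14, Serpina10 under 14 of 17 and Plat under 8 of 16, where the totals are smaller if a setting gave no value. The count of clotting genes called higher (2) was 1 with the level filter at the median, with probe sets one by one, with a replicate block, at an adjusted p below 0.01 and in every fit that left out an array. The count called lower (4) was 0 at an adjusted p below 0.01 and ranged from 0 to 5 over the left-out arrays. It was 0 without high-fat 1 or without high-fat 3.

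Further clotting genes called (1) numbered 3 with array weights, 2 with median centring and with the largest interquartile range, 3 at an adjusted p below 0.1, 0 at 0.01, and 0 to 3 over left-out arrays. Acute phase genes called lower (9) were 5 at 0.01 and 3 to 11 over left-out arrays. Transcription factors called lower (5) were 3 with probe sets without a suffix, 2 at 0.01 and 2 to 5 over left-out arrays. Over all genes, 826 higher became 1600 at 0.1 and 125 at 0.01, and 244 lower became 605 and 47. With array weights 373 were called lower. Leaving out a high-fat array gave 123 to 213 higher and 46 to 59 lower. Leaving out a normal diet array gave 763 to 933 higher and 186 to 312 lower.

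Genes near 0 changed sign. After cyclic loess F2 was -0.083, F13a1 0.025, Pros1 -0.059, Klkb1 -0.057, Vkorc1 -0.040, Ggcx -0.026 and Cebpa -0.077. After quantile normalization F13a1 was 0.013, Pros1 -0.088, Klkb1 -0.067, Kng1 0.0040, Ggcx -0.078 and Cebpa -0.046. With median centring Serpind1 was 0.013 and Kng1 0.019, and with array weights Pros1 was -0.021 and Ggcx -0.023. Ggcx was -0.16 on averaging its probe sets and -0.33 with its most variable one. Leaving out an array gave F2 -0.0087 to 0.070, F5 -0.10 to 0.39, F13a1 -0.14 to 0.053, Pros1 -0.15 to 0.17, Serpind1 -0.067 to 0.00087, Klkb1 -0.10 to 0.33, Kng1 -0.12 to 0.090, Ggcx -0.064 to 0.11 and Cebpa -0.065 to 0.22. The cause of these changes was not tested.

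The replicate numbers were not taken to pair the arrays. Same-numbered arrays of the diets had correlated deviations of -0.01, 0.04 and 0.0999, none above 0.1. Those of differently numbered arrays ran from -0.085 to 0.079. With the replicate block Fga, Fgb, Fgg, Serpina10 and Vwf were called, and over all genes 581 were higher and 187 lower.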
